A study of Mus musculus with 2 samples.

Results

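The collagen genes are the 44 genes of the 33207 in the deposited matrices whose symbol has the form Col, a number, a, a number, and all 44 are protein-coding and matched an identifier of the mouse annotation. They were taken by name alone, so no gene entered through its own measured value, but the members were chosen with earlier results of these data known. By the fibres or networks their products form they fall into 11 fibrillar genes, 6 of basement membrane type IV, 6 of the beaded filament type VI, 9 of the fibril-associated FACIT group, 4 transmembrane, 3 short-chain network and 2 multiplexin genes, and 3 others. The raw counts of each gene were followed in glia, neurons, and mesenchymal- and pericyte-like cells at the 2 stages sampled.

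A collagen is a trimer of α chains, and in many types the chains come from different genes, so that a cell may need several collagen genes to build a given molecule. Fibrillar collagens such as types I and III give connective tissue its tensile strength, type IV forms the sheet of basement membranes around nerves and vessels, and FACIT collagens attach to the surface of other fibrils. In peripheral nerve, Schwann cells lay down a basement membrane, while fibroblasts of the nerve sheaths and meninges make most of the fibrillar matrix.

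The cells came from *Egr2-Cre; R26-Tomato* embryos, also called *Krox20-Cre*, in which Cre made from the *Egr2* locus permanently switches on a red reporter in boundary cap cells, the neural crest derivatives at the points where nerve roots enter and leave the spinal cord, and in their progeny. Meninges and dorsal root ganglia with their roots were dissected from E11.5 or E12.5 embryos, digested with collagenase and dispase, and sorted for Tomato. The study followed these cells to ask which descendants of the boundary cap travel along nerves. Every cell in both libraries carries the same Cre and reporter alleles, there is no untraced control, and each stage is 1 library of 1 pooled litter. Stage, litter and library therefore cannot be told apart, and no test between stages was possible. The labels call all cells boundary cap cells of the meninges, whereas their markers divided them into several types.

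After filtering, 833 cells with 9541971 UMIs (unique molecular identifiers, each standing for a captured mRNA) remained in the E11.5 library, and 3496 cells with 22456846 UMIs in that of E12.5. Median depth was 11601 UMIs per cell in the first library and 6140 in the second, and 9 cell barcodes occurred in both libraries. Clusters were built with the collagen genes left out and named from marker lists. At E11.5 there were 427 *Sox10*-positive glia, 221 neuron-like and 61 pericyte-like cells, and no cluster was named mesenchymal-like. At E12.5 there were 1323 *Sox10*-positive glia, 182 mesenchymal-like, 1504 neuron-like, 36 myeloid-like and 41 pericyte-like cells. The glia held all 13 markers of their list at both stages, which summed to 3556 and 6751 CPM. Neuron-like cells had a UMI of 12 and 13 of them, at 246 and 451 CPM, so the sums and not the presence of a UMI set the classes apart. The pericyte-like clusters also held all 10 endothelial markers, which summed to 1003 CPM at the earlier and 1380 CPM at the later stage, against 22.0 and 27.3 CPM in glia. A further 36 and 410 cells of the glia-like clusters had no *Sox10* UMI and were kept apart. At E11.5, 4 of the 13 glial markers named the weakest glia-like cluster, and at E12.5, 4 of the 19 neuronal markers named the weakest neuron-like cluster, of 238 cells. Others were weakly named as well. Neuron-like clusters of 42 and 68 cells at E11.5 rested on 6 and 9 of the 19 markers. At E12.5, neuron-like clusters of 63 and 426 cells rested on 7 and 9 of the 19, and a glia-like cluster of 170 cells on 6 of the 13.

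Levels are given as CPM, for which the UMIs of all cells of a class were added up and scaled to 1000000, with the exact 95% Poisson interval in brackets. Intervals, here and below, cover counting error only. Libraries were read from the 3′ end, so CPM are not divided by transcript length, and levels are compared between classes rather than between genes. A gene was assigned to a class when it had 10 UMIs or more there and its CPM was at least 2-fold that of every other class of the stage (of the 4 named above), with intervals that did not overlap.

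Of the 4 classes compared, neurons held the least collagen mRNA. The 44 genes together made up 224 (206–242) CPM of the neuron-like mRNA of E11.5 and 233 (224–243) of that of E12.5. In *Sox10*-positive glia they reached 1063 (1036–1090) and 1967 (1937–1996) CPM. Pericyte-like cells held 2577 (2445–2714) and 2470 (2299–2650) CPM, and the mesenchymal-like cells of E12.5 stood above all with 7424 (7260–7592). The myeloid-like cells of E12.5, a type that should make little collagen, held 77.5 (49.1–116) CPM at a median depth of 8760 UMIs, against 6273 in the glia and 6283 in the neurons. Neurons lay above that reference as well. The heat map of all collagens with enough counts shows how their levels differed between the classes.

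**Figure D1:**
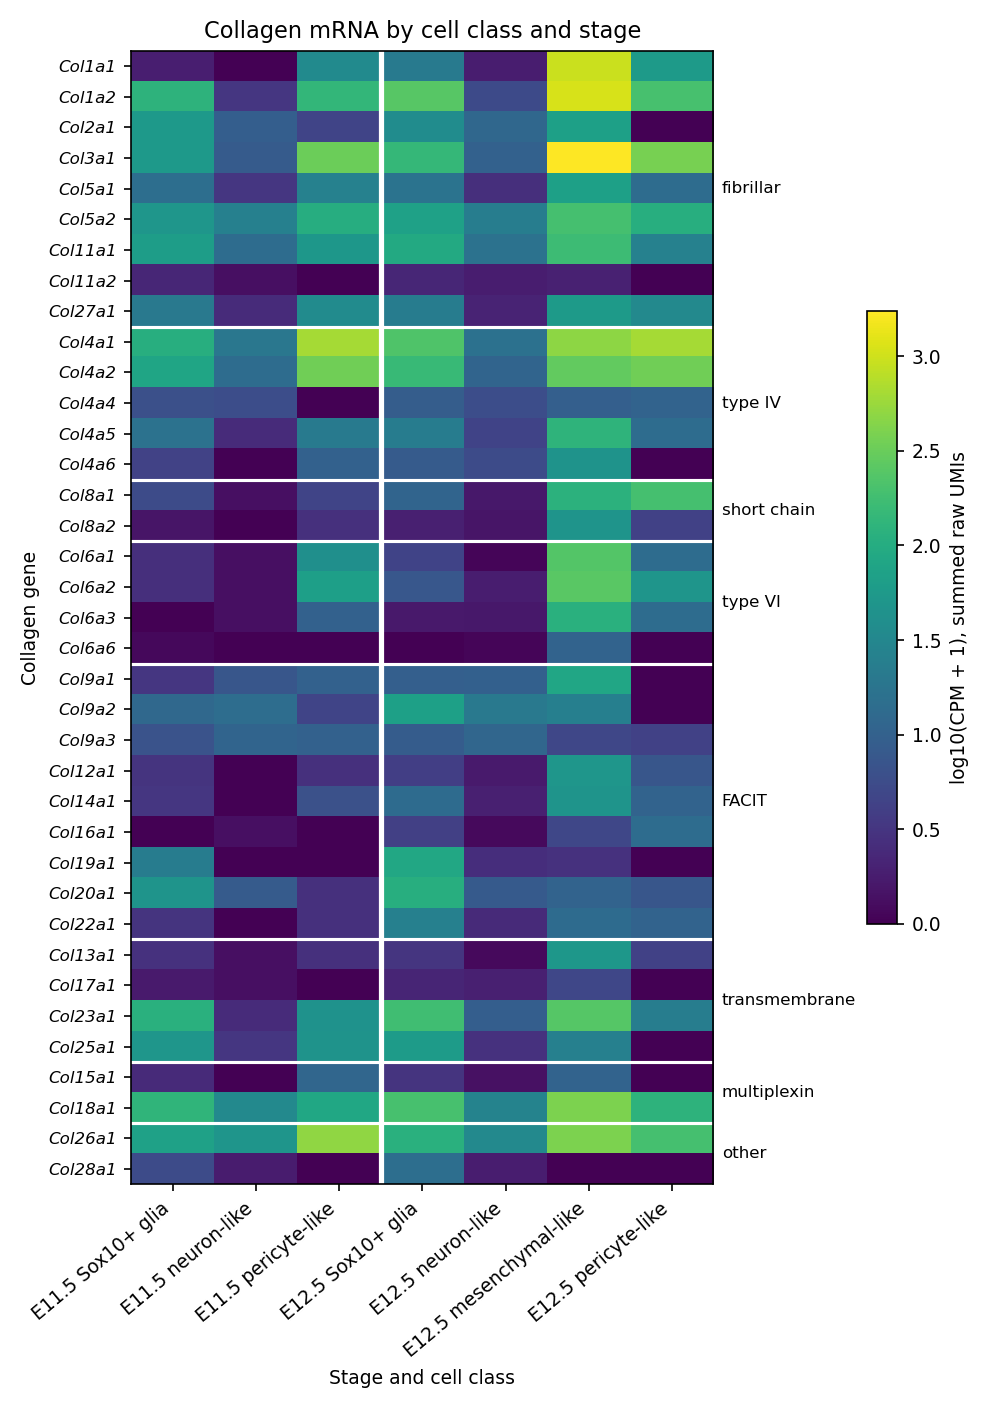
Level of each collagen gene with 10 UMIs or more in some class (rows, grouped by family) in the cell classes of E11.5 and E12.5 (columns), as log10(CPM + 1) of summed raw UMIs. Along a row, mesenchymal-like cells are brightest for types I, III and VI, pericyte-like cells for *Col4a1* and *Col4a2* and glia for *Col19a1* and *Col20a1*, and the neuron-like columns are mostly dark, *Col26a1* and *Col18a1* being their brightest rows.

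Of the 30 collagens that could be assigned at E11.5, 4 belonged to glia (*Col19a1*, *Col20a1*, *Col23a1* and *Col2a1*) where 3.42% of all genes tested did. None belonged to neurons (4.78% of all genes), 8 to pericyte-like cells (7.67% of all genes) and 18 to no class. At E12.5, 4 of 37 belonged to glia (*Col19a1*, *Col20a1*, *Col25a1* and *Col9a2*; 2.18% of all genes), none to neurons (3.74%), 15 to mesenchymal-like cells (2.07%) and none to pericyte-like cells (2.15%), which leaves 18 unassigned. The members that could be assigned passed a minimum of counts in some class, so these shares describe expressed collagens and not all 44. Without the doublet filter 7 were assigned to glia of E11.5, at a 3-fold rule 2 to glia of E12.5 (*Col19a1* and *Col20a1*), and in cells thinned to 2000 UMIs 7 to mesenchymal-like cells.

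*Col19a1* and *Col20a1*, 2 FACIT genes, were the collagens assigned to glia at both stages. At E11.5 there were no mesenchymal-like cells to compare glia with. *Col23a1* and *Col2a1*, assigned to glia at E11.5 only, were at E12.5 also at least 2-fold higher in glia than in neurons and in pericyte-like cells. *Col19a1* (ENSMUSG00000026141, chr1:24296772-24627011, minus strand, GRCm39) encodes the chain of type XIX collagen, found in basement membrane zones. In glia it stood at 22.2 (18.5–26.4) CPM at E11.5 and 86.4 (80.3–92.7) at E12.5. Neurons and pericyte-like cells of E11.5 had no *Col19a1* UMI, where 3 counts would be 1.13 and 5.39 CPM. At E12.5 it stood at 1.62 (0.923–2.62) CPM in neurons and 1.92 (0.233–6.94) in mesenchymal-like cells, with no UMI in pericyte-like cells. Glia were 53.5-fold (32.7–94.0) above neurons and 45.0-fold (12.4–372) above mesenchymal-like cells at that stage. After every cell was thinned to 2000 UMIs, 16.4% (14.4–18.6) of the glia of E12.5 had a *Col19a1* UMI against 0.348% (0.113–0.811) of the neurons, and 35.8% and 1.06% without thinning. Its neighbour *Col9a1*, whose 3′ end lies 5.01 kb away and faces it, had another pattern, with 81.6 (65.2–101) CPM in mesenchymal-like cells and 8.53 (6.71–10.7) in glia.

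*Col20a1* (ENSMUSG00000016356, chr2:180628316-180660156, plus strand) encodes type XX collagen, a FACIT collagen of little known function. Its glial level was 46.2 (40.8–52.1) CPM at E11.5 and 105 (98.8–112) at E12.5. It was also detected in neurons, at 7.51 (4.59–11.6) and 7.27 (5.69–9.15) CPM, and in mesenchymal-like cells at 9.6 (4.61–17.7). At E12.5 the neuronal and mesenchymal-like levels were both close to the 10.1 (2.08–29.5) CPM of the myeloid-like cells. That reference rests on 3 UMIs and is lacking at E11.5, so it cannot tell low expression from background. These low levels are therefore not read as expression. Glia exceeded neurons by 6.15-fold (3.90–10.2) and 14.5-fold (11.4–18.7).

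As glia were defined by *Sox10*, the windows before the transcription starts of the collagens were searched for ACAAAG and ACAATG on both strands, the core letters that Sox factors are known to bind. The 250 bases before the RefSeq start (GRCm38.p6 table) were available for 35 of the 44 genes, in 38 windows. At least 1 of these words occurred in 4 of the 38, and in 25.2% of the 32841 windows of all genes. Among the collagens assigned to glia at either stage that have a window (*Col19a1*, *Col20a1*, *Col9a2*, *Col25a1* and *Col23a1*), only *Col20a1* held such a word. The windows of the other 4 lay at least in part inside the longer GENCODE gene. The stretch is shown because *Col20a1* is assigned to glia at both stages and its RefSeq start lies within 12 bases of the GENCODE start. It matched GRCm39 at chr2:180628078-180628315, plus strand, and ends just before the GENCODE start, with the word in capitals (CTTTGT, the reverse complement of ACAAAG). A match of letters is not evidence of binding.
*Col20a1*, upstream: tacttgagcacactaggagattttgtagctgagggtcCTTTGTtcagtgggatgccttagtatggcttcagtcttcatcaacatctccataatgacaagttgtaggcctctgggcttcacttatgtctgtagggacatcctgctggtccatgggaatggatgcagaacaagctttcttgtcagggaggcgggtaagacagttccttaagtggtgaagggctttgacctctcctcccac

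*Col9a2* (chr4:120896582-120912523, plus strand), which encodes the α2 chain of the cartilage collagen type IX, was not glial at E11.5. It had 66 UMIs (8.92–14.7 CPM) in glia and stood at 13.5 (9.47–18.7) CPM in neurons. At E12.5 glia held 68.7 (63.4–74.4) CPM, 3.56-fold (3.02–4.22) the 19.3 (16.6–22.2) of neurons and 2.86-fold (1.92–4.46) the 24.0 (15.5–35.4) of mesenchymal-like cells. The other chains of the same trimer were low in these glia, *Col9a1* at 8.53 and *Col9a3* at 7.85 (6.11–9.94) CPM, and were not assigned to them. For every 100 *Col9a2* UMIs there were 12.4 (9.63–15.8) *Col9a1* UMIs in glia, 46.1 (35.4–59.6) in neurons and 340.0 (215.5–554) in mesenchymal-like cells. At E11.5 *Col9a1* was the only collagen at least 2-fold higher in neurons than in glia with an interval that left out 1, at 6.38 (3.72–10.2) against 2.27 (1.21–3.89) CPM, on 17 and 13 UMIs. *Col9a3* was higher by less, at 10.1 against 5.77 CPM, with glia at 0.569 (0.332–0.984) of neurons.

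The sources used here do not say whether intronic reads were counted, and the levels of long genes such as *Col19a1* (330.2 kb), *Col23a1* (294 kb) and *Col25a1* (468 kb) may depend on it. The transmembrane collagens *Col23a1* and *Col25a1* stood far above neurons in glia at both stages. *Col23a1* (chr11:51180566-51474745, plus strand) was at 113 (105–122) CPM in glia of E11.5, 1.5 (0.409–3.84) in neurons and 43.2 (27.6–64.2) in pericyte-like cells. At E12.5 its glial level was 176 (167–185) CPM, but mesenchymal-like cells held 243 (214–275), so it was assigned to neither. *Col25a1* (chr3:129925150-130393532, plus strand), whose product takes part in motor axon growth into muscle, was at 49.5 (43.9–55.6) CPM in glia and 45.0 (29.1–66.4) in pericyte-like cells of E11.5. At E12.5 glia held 58.1 (53.2–63.4) CPM, mesenchymal-like cells 25.0 (16.3–36.6), and pericyte-like cells no UMI, where 3 counts would be 9.59 CPM. The neuronal level of *Col25a1* was 2.25 (0.827–4.90) and 1.92 CPM.

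Among the remaining glial collagens, *Col2a1*, the fibrillar collagen of cartilage and also a transcript of the early neural tube and crest, was assigned to glia at E11.5 only. It stood at 53.3 (47.5–59.7) CPM in glia, 8.26 (5.18–12.5) in neurons and 3.60 (0.435–13.0) in pericyte-like cells. At E12.5 the mesenchymal-like cells held 69.1 (54.1–87.1) CPM and glia 36.4 (32.5–40.6). *Col28a1*, which encodes a collagen associated with Schwann cells of peripheral nerve, was low and glial, with 4.55 (2.97–6.66) and 13.7 (11.3–16.3) CPM. It had no UMI in mesenchymal- or pericyte-like cells. It exceeded the former by at least 4.74-fold against the floor of 3 counts, but was not assigned, since its interval met the upper limit of the 41 pericyte-like cells, 11.8 CPM. *Col22a1*, a FACIT collagen of tissue junctions, was at 2.10 (1.08–3.66) CPM in glia of E11.5 and 24.3 (21.2–27.8) at E12.5, where mesenchymal-like cells held 12.5 (6.65–21.3).

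The chains of type I collagen stood in different proportions from class to class. *Col1a1* and *Col1a2* encode the α1 and α2 chains of the same molecule, and fibroblasts make both. In mesenchymal-like cells *Col1a1* (chr11:94827050-94843868) stood at 949 (891–1009.9) CPM and *Col1a2* (chr6:4504814-4541555) at 1106 (1043–1172). In glia of E11.5, *Col1a2* was at 122 (113–131) CPM, on 695 UMIs, while *Col1a1* had 5 UMIs in all 427 cells, or 0.874 (0.284–2.04) CPM. At E12.5 the glial levels were 248 (238–259) CPM for *Col1a2* and 20.4 (17.5–23.6) for *Col1a1*. Neurons were low for both, with *Col1a2* at 2.25 (0.827–4.90) and 4.34 (3.14–5.85) CPM.

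Set against each other within a class, glia held 0.719 (0.233–1.69) *Col1a1* UMIs per 100 *Col1a2* UMIs at the earlier stage and 8.22 (7.01–9.57) at the later. Pericyte-like cells held 24.4 (13.9–40.6) and 29.0 (16.2–49.7), and mesenchymal-like cells 85.8 (78.7–93.4). The glial interval lay below that of pericyte-like cells at both stages and below that of mesenchymal-like cells at E12.5. Both chains were found together in 167 of 182 mesenchymal-like cells (91.8%) and in 94 of 1323 glia (7.11%), at median depths of 5757 and 6273 UMIs. The product of the separate shares was 90.9% and 5.33%, so most of this contrast follows from how often each chain was detected. The type VI gene *Col6a2* gave the same contrast, with 2.62 (1.98–3.40) UMIs per 100 *Col1a2* UMIs in glia of E12.5 and 22.8 (19.9–26.1) in mesenchymal-like cells.

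The low glial *Col1a1* of E12.5 differed in this respect. *Col6a2* UMIs per 100 *Col1a1* UMIs were 31.8 (23.2–43.1) in glia and 26.6 (23.1–30.5) in mesenchymal-like cells, intervals that overlap. The 14 mesenchymal markers summed to 12.7 CPM in those glia, with 5 of them at 0, against 2954 CPM in mesenchymal-like cells. In glia without a UMI of any mesenchymal or pericyte marker, *Col1a1* was at 23.5 CPM. Of all these glia, 6.73% had a mesenchymal and 21.5% a pericyte marker UMI, and the cells with either were left out of that value. In all glia *Col1a1* was at 13.4 CPM once the top 1% of cells was left out. There were 179 *Col1a1* UMIs in the 1323 glia of E12.5, 8 in the 1504 neurons and none in the 36 myeloid-like cells. The source of the glial *Col1a1* was not tested.

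*Col3a1*, the type III chain of soft connective tissue, was highest in mesenchymal-like cells at 1728 (1649–1809) CPM, followed by pericyte-like cells at 377 (312–452), glia at 144 (136–152) and neurons at 8.98 (7.22–11.1). At E11.5 the order was pericyte-like cells at 322 (276–373) CPM, glia at 55.9 (50.0–62.4) and neurons at 7.51 (4.59–11.6). No neighbouring classes in these orders had overlapping intervals. Glia held more *Col1a2* than *Col3a1* UMIs, 172 (160.4–184.5) per 100 at E12.5, while mesenchymal-like cells held 64.0 (59.4–69.0).

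**Figure D2:**
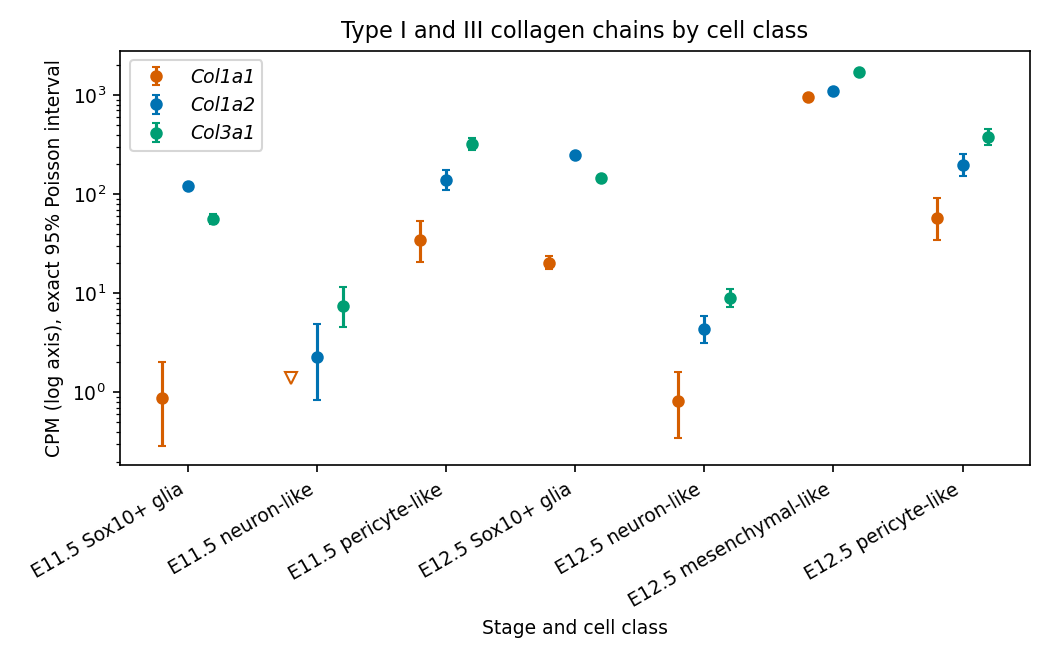
CPM of *Col1a1*, *Col1a2* and *Col3a1* (log axis) in each cell class and stage, with exact 95% Poisson intervals; the open triangle marks the upper limit of a class with no UMI. *Col1a1* lies next to *Col1a2* in mesenchymal-like cells and far below it in glia at both stages.

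The mesenchymal-like set of E12.5 ran across families. It took in the type I and III chains, *Col5a1*, which sets fibril diameter, the type VI genes *Col6a1*, *Col6a2* and *Col6a3*, and the type IV genes *Col4a5* and *Col4a6*. The FACIT genes *Col9a1*, *Col12a1* and *Col14a1*, the transmembrane *Col13a1*, the short-chain *Col8a2*, and *Col26a1* completed it. For type VI, *Col6a1* stood at 231 (203–263) CPM, *Col6a2* at 253 (223–285) and *Col6a3* at 112 (92.9–135), against 3.53 (2.40–5.01), 6.49 (4.91–8.40) and 0.683 (0.251–1.49) in glia. *Col12a1*, *Col13a1*, *Col14a1* and *Col8a2* stood between 46.1 and 50.9 CPM there. In glia, *Col14a1* was at 12.5 (10.3–15.1) CPM and the other 3 were at 2.96 or less. *Col5a1* was at 67.2 (52.4–84.9) CPM in mesenchymal-like cells, 16.2 (13.6–19.0) in glia and 1.72 (1.00–2.75) in neurons.

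For pairs of classes, a gene counted as higher at 2-fold or more with an interval that left out 1. Glia were higher than mesenchymal-like cells for 5 of 37 collagens (*Col19a1*, *Col20a1*, *Col25a1*, *Col28a1* and *Col9a2*; 8.90% of all genes tested were higher in glia) and lower for 21 (10.9% of all genes). The median collagen stood at 0.296 of its mesenchymal level in glia, where the median of all genes tested was 0.973. Ratios between a pair of classes were chosen after the levels had been seen. Mesenchymal-like cells exceeded neurons for 28 of 33 (17.9% of all genes) and fell short of them for 1, *Col9a3* (10.4% of all genes). They exceeded pericyte-like cells for 21 of 30 (9.23% of all genes), and pericyte-like cells exceeded them for none (6.47%).

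Type IV collagen, the network of basement membranes, was detected in all 4 classes. *Col4a1*, of the most widespread type IV trimer, was at 635 (570.2–704) CPM in pericyte-like cells, 105 (96.7–114) in glia and 18.4 (13.6–24.3) in neurons at E11.5. At E12.5 pericyte-like cells held 639 (554–734) CPM, mesenchymal-like cells 483 (442–527), glia 221 (211–231) and neurons 15.2 (12.9–17.9). *Col4a2*, the other chain of that trimer, had the same order, with 347, 79.7 and 13.1 CPM at E11.5. The genes are arranged head to head on chromosome 8, and their ratio was highest in glia and lowest in pericyte-like cells at both stages. There were 76.0 (67.1–86.0) *Col4a2* UMIs per 100 *Col4a1* UMIs in glia of E11.5, 71.4 (44.9–112) in neurons and 54.7 (45.6–65.3) in pericyte-like cells, whose interval lay below that of glia. At E12.5 there were 67.9 (63.3–72.9) in glia, 66.9 (51.5–86.6) in neurons, 60.0 (51.9–69.4) in mesenchymal-like and 54.0 (42.3–68.6) in pericyte-like cells, with intervals that overlapped.

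The X-linked pair *Col4a5* and *Col4a6*, whose starts also face away from each other within 1.28 kb, was led by mesenchymal-like cells at 128 (107–151) and 45.1 (33.2–60.0) CPM. In glia of E12.5 they stood at 22.0 (19.0–25.3) and 7.51 (5.81–9.55) CPM. *Col4a4*, a chain of the kidney and inner ear trimer, was low everywhere, with 8.08 (6.31–10.2) CPM in glia and 4.85 (3.57–6.42) in neurons. Its partner *Col4a3* was below 10 UMIs in every class.

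At E11.5 the pericyte-like set was *Col1a1*, *Col3a1*, *Col4a1*, *Col4a2*, *Col5a2*, *Col6a1*, *Col6a2* and *Col26a1*. *Col1a1* stood at 34.2 (20.6–53.3) CPM there, *Col1a2*, which was not assigned, at 140.2 (111–175), and *Col5a2*, a chain of type V fibrils, at 104 (79.2–135) against 48.6 (43.1–54.7) in glia. *Col26a1*, whose product is a little studied matrix protein, was at 503 (446–566) CPM in those cells, 69.9 (63.2–77.1) in glia and 47.7 (39.7–56.7) in neurons. *Col6a1* and *Col6a2* were at 39.6 (24.8–59.9) and 66.5 (46.8–91.7) CPM, and at 1.75 (0.838–3.22) each in glia. The 14 mesenchymal markers summed to 412 CPM in the pericyte-like cells of E11.5, with 11 of 14 detected, and to 220.5 CPM at E12.5, with 7 of 14. The part of such transcripts in this set was not tested. At E12.5, where mesenchymal-like cells entered the comparison, no collagen was assigned to pericyte-like cells. With mesenchymal-like cells left out, as at E11.5, 6 were (*Col1a1*, *Col3a1*, *Col4a1*, *Col4a2*, *Col6a2* and *Col8a1*). The share of all genes was not counted under that setting, so these 6 are not read as a result about collagens. Pair by pair, glia were above pericyte-like cells for 4 of 30 collagens at E11.5 (9.03% of all genes) and below them for 8 (10.6%). At E12.5 they were above for 8 of 34 (7.25% of all genes), *Col11a1*, *Col23a1* and *Col2a1* among them, and below for 6 (6.07%). Pericyte-like cells were above neurons for 16 of 22 (16.0% of all genes) and then 11 of 25 (9.67%), and below for none (12.1%) and 1, *Col9a2* (9.09%). *Col8a1*, of the short-chain network beneath endothelium, was at 192 (146–247) CPM in pericyte-like cells of E12.5, 119 (99.0–142) in mesenchymal-like cells and 10.1 (8.13–12.5) in glia.

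No collagen was assigned to neurons at either stage. By the pair rule glia exceeded neurons for 20 of 29 collagens at E11.5 (17.7% of all genes) and for 28 of 34 at E12.5 (22.1% of all genes). Among the 20 of E11.5, *Col12a1*, *Col14a1*, *Col19a1*, *Col22a1* and *Col4a6* had no neuronal UMI. Against the floor of 3 counts, *Col12a1* and *Col22a1* were at least 1.86-fold higher, which is below the 2-fold rule. On the same floor *Col14a1* was at least 2.02-fold, *Col4a6* at least 2.95-fold and *Col19a1* at least 19.7-fold higher. Neurons exceeded glia for 1 of the 29, *Col9a1* (11.3% of all genes), and for none of the 34 (13.1%). The median collagen was 5.88-fold higher in glia at E11.5 and 10.1-fold at E12.5, and the median of all genes was 1.11 and 1.12. By neuronal UMIs, which do not compare amounts of mRNA between genes, the highest were *Col26a1*, at 47.7 CPM and then 32.8 (29.3–36.6), *Col18a1*, at 32.3 (25.8–39.9) and 27.4 (24.2–30.8), and *Col5a2*, at 24.4 (18.8–31.1) and 22.5 (19.7–25.7). *Col9a2* at 19.3, *Col11a1* at 15.5 (13.2–18.2) and *Col9a3* at 10.7 (8.76–12.9) CPM were among those that followed at E12.5. In myeloid-like cells *Col26a1*, *Col9a2* and *Col9a3* had 1 UMI each (3.37 CPM), *Col18a1* had 2 (6.74 CPM), and *Col5a2* and *Col11a1* had none. In the neuron-like clusters of E12.5 where they were lowest, *Col26a1* (3.32 CPM) and *Col18a1* (4.51 CPM) lay at about these myeloid-like levels.

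Within the neurons of E12.5, several collagens were uneven. *Col26a1* was at 85.0 (69.6–103) CPM in the cluster led by *Cck* and *Neurog1*, genes of sensory neuron precursors, and at 3.32 (1.43–6.54) in the cluster led by *Slc17a6* and *Stmn2*, a marker of differentiated neurons. *Col18a1* was at 89.9 (74.0–108) CPM in the *Neurog1* cluster and at 4.51 (1.66–9.82) in the cluster led by *Sncg* and *Prph*. *Col2a1* had the widest spread, from 1.24 (0.257–3.64) to 49.7 (38.1–63.8) CPM, and *Col4a1*, *Col4a2* and *Col5a2* spread 17.0-fold, 17.4-fold and 5.43-fold. All 6 genes were highest in the *Neurog1* cluster, which is the one named on 4 of 19 neuronal markers. *Col9a3* ran from 5.27 (2.12–10.8) to 17.3 (12.1–24.1) CPM, and *Col11a1* from 11.7 to 17.7 CPM with overlapping intervals.

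Several collagens were broad. *Col18a1*, the heparan sulfate collagen of basement membranes, stood at 131 (121–140.3) CPM in glia and 84.5 (62.1–112) in pericyte-like cells of E11.5. At E12.5 it was at 394 (357–434) CPM in mesenchymal-like cells, 199 (189.6–208) in glia and 121 (85.9–167) in pericyte-like cells. *Col11a1*, a minor fibrillar chain, was at 62.4 (56.1–69.2) CPM in glia of E11.5 and 93.0 (86.7–99.6) at E12.5, with 167 (143–194) in mesenchymal-like cells. *Col5a2* and *Col27a1*, also fibrillar, stood at 70.9 (65.4–76.7) and 22.0 (19.0–25.3) CPM in glia of E12.5 and at 191 and 57.6 (44.0–74.2) in mesenchymal-like cells. *Col15a1*, *Col16a1*, *Col11a2*, *Col17a1* and *Col6a6* passed 10 UMIs at E12.5 but none exceeded 12.8 CPM in any class.

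At E11.5, 14 collagens had fewer than 10 UMIs in every class. They were *Col10a1*, *Col11a2*, *Col15a1*, *Col16a1*, *Col17a1*, *Col24a1*, *Col4a3*, *Col5a3*, *Col6a3*, *Col6a4*, *Col6a5*, *Col6a6*, *Col7a1* and *Col8a2*. At E12.5, 7 remained below that count, which were *Col10a1*, *Col24a1*, *Col4a3*, *Col5a3*, *Col6a4*, *Col6a5* and *Col7a1*. *Col10a1*, of hypertrophic cartilage, had no UMI in any of the 4 classes at either stage.

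Between the stages, glial collagen mRNA was higher at E12.5. Of 34 collagens with 10 UMIs or more in glia at some stage, 15 were at least 2-fold higher at E12.5 with an interval that left out 1 (9.63% of all genes), and none was 2-fold higher at E11.5 (1.89% of all genes). The median collagen was 1.63-fold higher and the median of all genes 1.11-fold. *Col1a1* stood 23.3-fold (9.80–72.6) higher, *Col22a1* 11.6-fold (6.51–22.8), *Col9a2* 5.96-fold (4.61–7.80), *Col14a1* 5.51-fold (3.09–10.7) and *Col19a1* 3.89-fold (3.22–4.73). *Col16a1*, with no UMI in glia at E11.5 and 27 at E12.5, was at least 5.86-fold higher against the floor of 3 counts.

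The other 9 were *Col9a1*, *Col6a2*, *Col28a1*, *Col3a1*, *Col20a1*, *Col4a6*, *Col8a1*, *Col4a1* and *Col1a2*, from 2.04-fold (1.87–2.23) for *Col1a2* to 3.75-fold (2.07–7.38) for *Col9a1*. *Col2a1* was the only collagen whose interval lay wholly below 1, at 0.683 (0.582–0.801) of its E11.5 level. *Col25a1*, *Col27a1*, *Col5a1* and *Col4a5* stood between 1.13-fold and 1.40-fold. The markers of other types moved in both directions in glia. The mesenchymal list went from 3.67 to 12.7 CPM and the cartilage list from 14.0 to 47.3 CPM. The pericyte list went from 41.8 to 37.5 CPM and the erythroid list from 18.4 to 12.7 CPM. The list of glial markers itself went from 3556 to 6751 CPM. Among glia without a UMI of a mesenchymal or pericyte marker, 12 of these 15 collagens were 2-fold higher at E12.5 (all but *Col4a1*, *Col4a6* and *Col6a2*), and 9 were when all cells were thinned to 2000 UMIs. In the cells of glia-like clusters without a *Sox10* UMI, 10 of 27 collagens were 2-fold higher at E12.5 (4.44% of all genes) and none was lower (2.15%). The glial clusters differed between the stages, and the part of their make-up in these ratios was not tested.

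**Figure D3:**
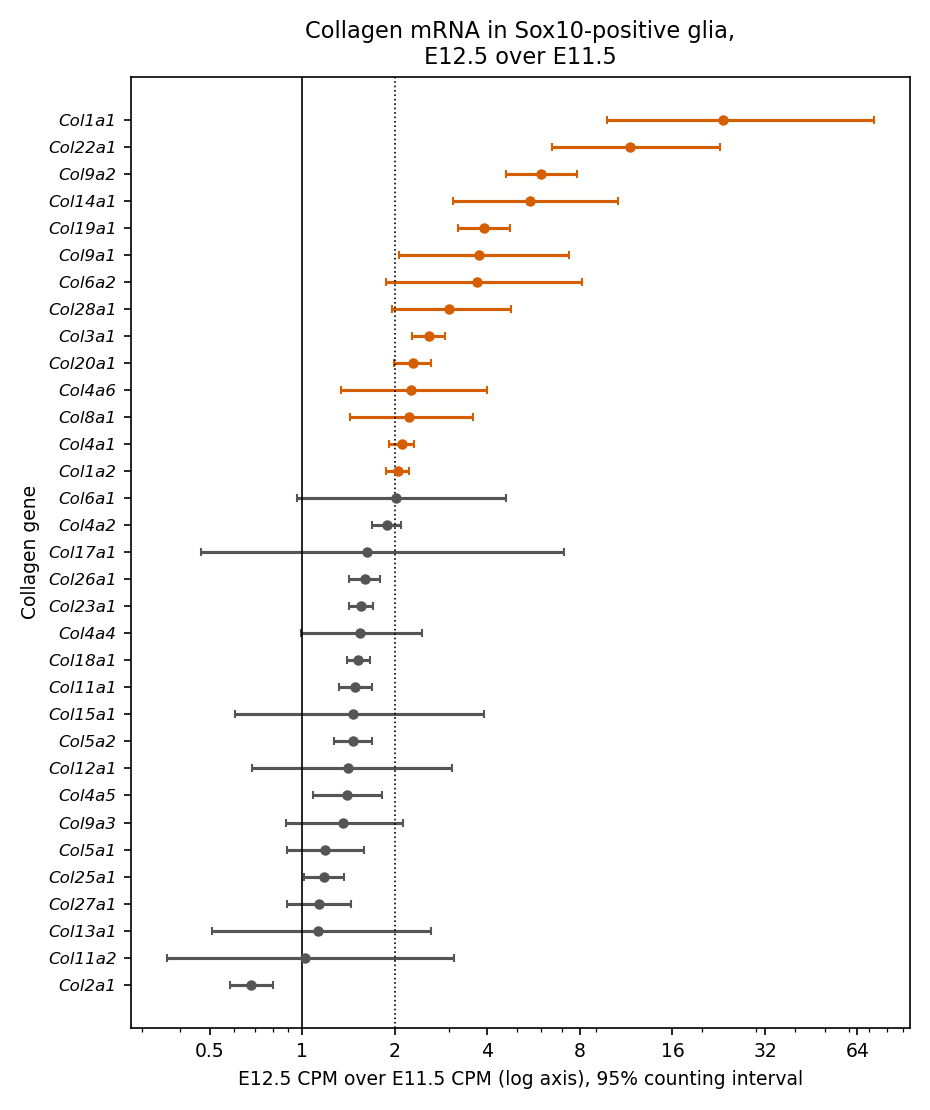
CPM at E12.5 over CPM at E11.5 in *Sox10*-positive glia (log axis) for each collagen with 10 UMIs or more at some stage and at least 1 at E11.5, with 95% counting intervals; the solid line marks 1 and the dotted line 2. Genes that met the 2-fold rule are in orange, from *Col1a2* at 2.04 to *Col1a1* at 23.3, and *Col2a1* alone lies wholly to the left of 1.

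In neurons, 3 of 22 collagens met the rule upward (6.71% of all genes) and none downward (2.63%). *Col23a1* was 5.51-fold (2.07–20.7) higher, while *Col19a1* and *Col4a6* had no UMI at E11.5 and were at least 1.43-fold and 4.03-fold higher at E12.5. A gene without a UMI at E11.5 counted as past 2-fold, so *Col19a1* was called although its bound lay below 2-fold. In cells thinned to 2000 UMIs none met the rule upward, and with the weakly named clusters left out 3 met it downward (*Col18a1*, *Col26a1* and *Col4a2*). In pericyte-like cells, 1 of 17 was higher at E12.5 (5.28% of all genes), *Col8a1*, which went from 3.60 (0.435–13.0) to 192 CPM, on 2 and 60 UMIs. *Col25a1*, *Col26a1* and *Col6a1* were lower (5.49% of all genes), with *Col26a1* at 503 and 189 (144–243) CPM, and it was the only 1 of these in thinned cells. *Igfbp7* and *Rgs5* were among the leading genes of the pericyte-like cluster at both stages. *Vtn* was among them at E11.5 only, and the smooth muscle genes *Acta2* and *Tagln* at E12.5 only, so the make-up of the classes differed in part.

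The glial collagens differed among the glia. At E12.5 the 6 glial clusters fell into a high group for *Col20a1*, *Col25a1* and *Col9a2*, made of cluster 3, led by genes that include *Prss56*, a boundary cap marker, and cluster 4, led by the cell division genes *Aurkb* and *Ccnb1*. *Col20a1* was at 285 (258–313) CPM in cluster 3 and 202 (181–224) in cluster 4, but at 16.6 (12.0–22.3) in cluster 6, led by *Fabp7* and *Hes5*, and at 5.31 (1.72–12.4) in cluster 5, led by *Dll1*. *Col25a1* was at 152 (133–173) CPM in cluster 3 and 18.1 in cluster 6. *Col9a2* was at 145 (127–166) CPM in cluster 3 and 15.9 (8.91–26.3) in cluster 5.

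*Col19a1* followed another order. It was highest in cluster 7, led by genes that include *Mal* and *Dkk2*, at 154 (131–179) CPM, then in cluster 6 at 101 (89.1–114), and at 62.2 (50.2–76.3) in cluster 3. *Col22a1* was high where *Col20a1* was low, with 62.8 (53.5–73.2) CPM in cluster 6, 32.9 (22.4–46.7) in cluster 5 and at most 9.49 (4.55–17.5) in the others. *Col2a1* lay on the same side, at 80.7 (63.6–101) CPM in cluster 5 and 53.2 (44.7–62.8) in cluster 6.

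The type I chains moved together among the glia. *Col1a1* was at 47.3 (36.9–59.8) CPM in cluster 3, 31.7 (23.7–41.5) in cluster 4 and 44.6 (32.8–59.3) in cluster 7, and at 2.86 or less in the other 3. *Col1a2* was at 496 (461–533), 377 (349–408) and 401 (364–442) CPM in the same 3 clusters. In cluster 6, *Col1a2* was still at 93.6 (82.2–106) CPM with 4 *Col1a1* UMIs in 371 cells. *Col6a2* stood at 12.9 (7.74–20.1), 13.2 (8.25–19.9) and 7.59 (3.28–15.0) CPM in clusters 3, 4 and 7.

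**Figure D4:**
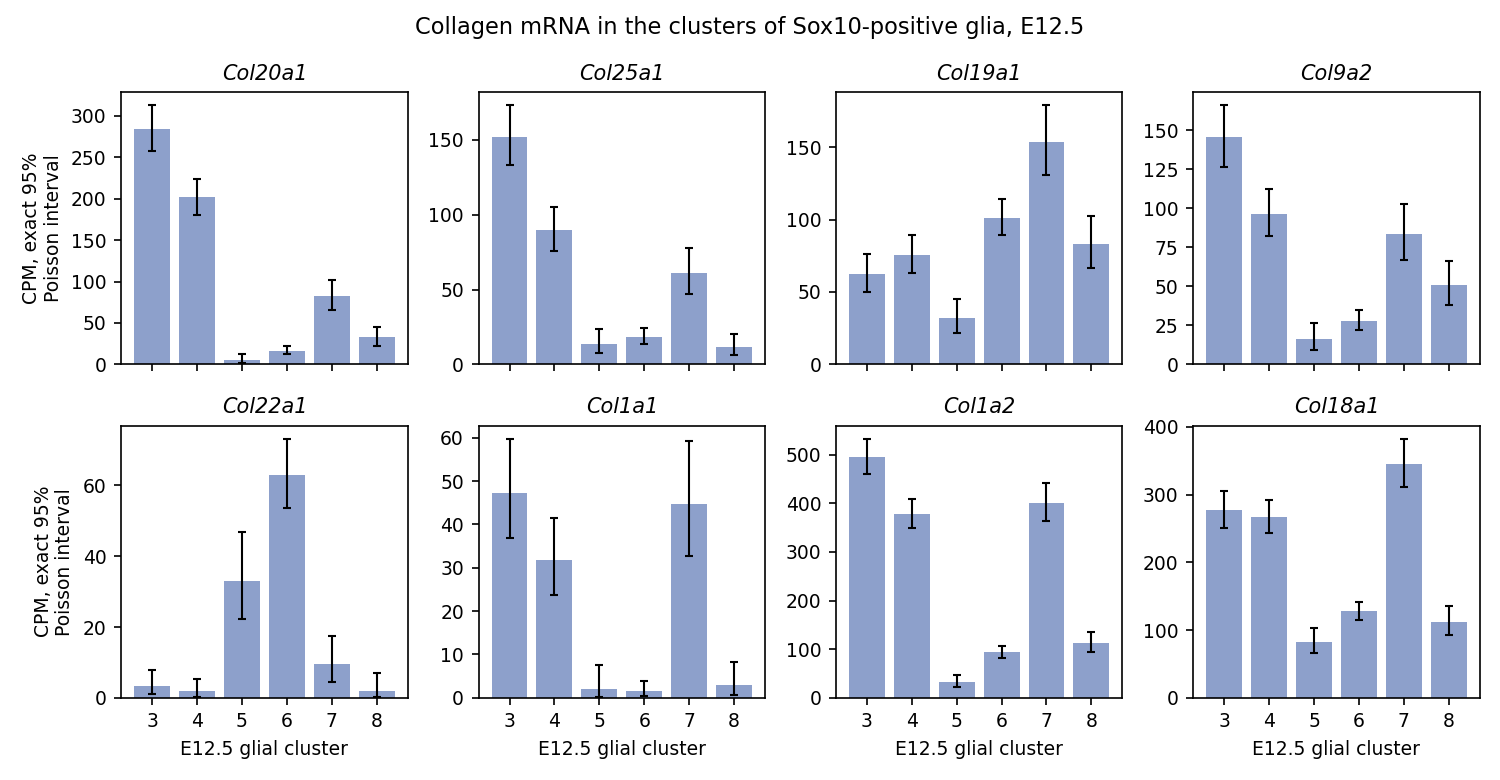
CPM of 8 collagens in the 6 clusters of *Sox10*-positive glia at E12.5 (bars from 0, exact 95% Poisson intervals; the scale differs between panels). *Col20a1*, *Col25a1* and *Col9a2* are highest in cluster 3, *Col19a1* and *Col18a1* in cluster 7 and *Col22a1* in cluster 6, while *Col1a1* is found in clusters 3, 4 and 7.

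At E11.5 the cluster with *Gfra3* and *Egfl8* among its leading genes (cluster 7, 134 cells) held the most *Col1a2*, at 249 (226–273) CPM, *Col25a1*, at 122 (106–139), and *Col20a1*, at 102 (87.9–118). All 5 glial *Col1a1* UMIs of that stage were in it. *Col19a1* was higher in clusters 2 and 3, both with *Kcnip4* and *Cntn3* among their leading genes, at 40.8 (28.3–57.1) and 45.5 (33.1–61.1) CPM, than in cluster 7 at 17.0 (11.4–24.2). *Col2a1* was lowest in cluster 7, at 21.5 (15.2–29.5) CPM, and highest in cluster 1, led by *Rgcc* and *Hes5*, at 77.9 (64.7–93.1). The weakest cluster by markers, cluster 6, had the lowest level of *Col20a1*, *Col23a1*, *Col25a1* and *Col1a2*. With such clusters left out at both stages the number of collagens assigned to glia stayed within 1.5 times.

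Split by genes rather than clusters, glia of E12.5 with a UMI of *Prss56* held *Col20a1* at 179.9 (164–197) CPM and those without at 72.7 (66.1–79.8), a ratio of 2.47 (2.17–2.82), at median depths of 5932 and 6369 UMIs. *Col22a1* went the other way, at a ratio of 0.222 (0.131–0.356). *Col25a1*, although high in cluster 3, was also lower in the *Prss56* cells, at a ratio of 0.800 (0.652–0.978). *Col1a2* was 1.57-fold (1.44–1.71) and *Col11a1* 1.81-fold (1.57–2.08) higher in the *Prss56* cells, and the ratio of *Col19a1* was 0.989 (0.843–1.16). At E11.5, *Col19a1* was 1.95-fold (1.35–2.81), *Col20a1* 1.58-fold (1.23–2.04), *Col11a1* 1.44-fold (1.15–1.79) and *Col1a2* 1.36-fold (1.16–1.60) higher in *Prss56* cells. *Col25a1* was lower in them at that stage too, at a ratio of 0.618 (0.455–0.829). With *Itga4*, a marker of the hub state of Schwann cell precursors, *Col1a2* was 2.07-fold (1.78–2.41) higher at E11.5 and 1.53-fold (1.38–1.69) at E12.5, and *Col25a1* 2.15-fold (1.69–2.74) and 1.39-fold (1.11–1.72).

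The same rule was applied to 54 genes that modify, process, receive or bind collagen. At E11.5, of 48 with enough counts, 2 were assigned to glia (3.42% of all genes), 3 to neurons (4.78%) and 16 to pericyte-like cells (7.67%). At E12.5, of 52, 2 were assigned to glia (2.18% of all genes), 3 to neurons (3.74%), 4 to mesenchymal-like (2.07%; *Adamts2*, *Fbn2*, *Lox* and *P3h4*) and 2 to pericyte-like cells (2.15%; *Itga1* and *Itga2*). The glial and neuronal counts lay near the shares of all genes. At E11.5 the pericyte-like genes with 100 UMIs or more were *Serpinh1*, *Itga1*, *Nid1*, a basement membrane linker, at 239 (200.2–283) CPM, and *Fn1*, fibronectin, at 205 (169–246). Glia held these last 2 at 33.6 (29.0–38.7) and 26.7 (22.7–31.3) CPM. *Fbn2*, fibrillin, was at 514 (471–559) CPM and *P3h4*, of the collagen hydroxylation complex, at 101 (82.5–122) in mesenchymal-like cells. The glial genes were the same at both stages. *Adgrg6*, an adhesion receptor of Schwann cells that binds type IV collagen, was at 63.8 (57.4–70.7) and 95.9 (89.6–103) CPM in glia and below 5 in neurons. *Postn*, a matrix protein that binds collagen fibrils, was at 254 (241–267) and 294 (283–306) CPM.

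The neuronal genes were also the same. *Adgrg1*, a receptor for type III collagen, was at 69.8 (60.2–80.6) CPM in neurons of E11.5 and 110.2 (104–117) in those of E12.5, while glia held 1.22 (0.492–2.52) and 13.3 CPM. *Ddr1*, a collagen-binding kinase, was at 82.2 (71.7–93.9) and 84.8 (79.2–90.7) CPM in neurons and 39.5 in glia at each stage. *P4ha2*, a prolyl hydroxylase subunit, was the other, at 34.2 (27.5–41.9) and 29.7 (26.4–33.3) CPM. *Serpinh1*, the collagen chaperone, was present in all classes and belonged to none at E12.5, with 235 (226–245) CPM in neurons, 889 (869–909) in glia, 1463 in pericyte-like and 1993 in mesenchymal-like cells. *Itga1*, a subunit of a collagen integrin, was at 265 (211–329) CPM in pericyte-like cells of E12.5 and 1.82 (1.04–2.96) in glia.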

How the data were processed

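Single-cell RNA-seq libraries (10x 3′ V2) were used, 1 per stage. The authors made the deposited UMI counts with Cell Ranger (7.0 in the labels, 7.0.1 in the file header) on mm39. They are raw whole numbers for every called barcode. Whether intronic reads were counted is not given in the sources used here.

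The filters of the study's methods were applied: at most 10% mitochondrial UMIs, at least 2000 UMIs (E11.5) or 1000 (E12.5), and a Scrublet score below 0.2 (scanpy 1.11.5), which left 833 of 1431 and 3496 of 3762 barcodes. Collagen genes were left out of clustering (3000 variable genes, 30 principal components, 15 neighbours, Leiden resolution 1, igraph 0.11.9). A marker counted in a cluster when at least 20% of the cells had a UMI of it and its mean was no lower than the maximum over clusters divided by 3. A cluster took the name of the list with the highest proportion of such markers (3 or more), and none was named when its 10 leading genes held more markers of another class. *Sox10*-positive glia are cells of glia-like clusters with a *Sox10* UMI.

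Counts were summed per class. Intervals are exact Poisson (CPM), exact binomial (shares) and exact conditional binomial (ratios), from scipy 1.17.1. With 1 library per stage no test was made. Ratios and intervals were tested on simulated Poisson counts per class. These leave out the spread between cells and litters, so they check the calculation only. Collagens are named with values if assigned, if they had at least 100 UMIs in a library or if they differed 2-fold between stages. Members and lists were chosen with earlier results of these data known. Positions are from GENCODE M39 on GRCm39. The closing section gives the effect of 17 planned and 3 added alternatives.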

Additional observations from a re-analysis of the deposited data

Results flagged for a closer look

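Signals outside the comparisons stood above the neuron-like level of collagen mRNA (224 CPM in the earlier and 233 CPM in the later library). The 88 cells of the unnamed cluster of E11.5, which have a median of 2827 UMIs and hemoglobin genes among their leading genes, held 1351 CPM of summed collagen UMIs. The 13 glial markers summed to 4003 CPM in these cells, against 3556 in *Sox10*-positive glia, and the erythroid markers to 359 CPM. By the naming rule 10 of 13 glial markers counted there, so these were shallow cells with glial markers that the hemoglobin genes left without a name. The barcodes removed by the filters held 1998 CPM at E11.5, over 598 barcodes, and 1709 CPM at E12.5, over 266 barcodes. In the unnamed cluster there were 6.12 (1.22–19.0) *Col1a1* UMIs per 100 *Col1a2* UMIs.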

How the results depend on the processing

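Of 13 counts of collagens, compared over the alternatives in 138 values, 128 stayed within 1.5 times the reported count and 10 did not. Collagens assigned to glia at E11.5 went from 4 to 7 without the doublet filter, with all 4 shared, and at E12.5 from 4 to 2 at a 3-fold rule and to 7 with mesenchymal-like cells left out. Those assigned to mesenchymal-like cells went from 15 to 7 in cells thinned to 2000 UMIs, with 6 shared. Those assigned to pericyte-like cells at E12.5 went from 0 to 1 at a 1.5-fold rule and to 6 with mesenchymal-like cells left out. Between stages, thinning moved the count higher at E12.5 in glia from 15 to 9, with all 9 shared, that in neurons from 3 to 0, and that higher at E11.5 in pericyte-like cells from 3 to 1. Leaving out clusters named on under 50% of their list moved the count higher at E11.5 in neurons from 0 to 3. Of 67 CPM values, 24 left their reported interval in thinned cells and 35 without the top 1% of cells per gene. The same held for 19 without weakly named clusters, 18 as the mean of each cell's own CPM and 13 without the doublet filter. In each other alternative at most 8 did, and with 15 principal components all 67 stayed. The cause of these moves was not tested. Thinning both lowers the counts and drops cells under 2000 UMIs, and leaving out a class removes it from the comparison. The shares of all genes were not counted under the alternatives. Leaving out mesenchymal-like cells or weakly named clusters, and taking cells without a mesenchymal or pericyte marker, were chosen after seeing the data. No paired analysis was possible because each stage has 1 library. With 1 library per stage the spread between litters is unknown, and the 41 to 61 pericyte-like cells limit any statement on them.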
